A study of Mus musculus with 9 samples.

Results

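The 6 genes described here encode the collagen chains of the cartilage fibril: Col2a1 (collagen II), Col9a1, Col9a2 and Col9a3 (collagen IX) and Col11a1 and Col11a2 (collagen XI). They were chosen by name, each gene being read from its brightest array probe by mean log2 intensity, and they are 6 of the 18295 genes with a tested probe. Each of the 6 had 1 probe, and all 6 probes were tested. Chondrocytes were isolated by collagenase digestion from the knee articular cartilage of Kunming mice at 1 day of age and were grown as a monolayer in high-glucose medium with serum. The study asked how the stiffness of the substrate alters gene expression in these cells. It compared 3 groups of 3 samples: normal chondrocytes, cells on a soft ECM of 500 Pa and cells on a stiff ECM of 100 kPa, the gels being polyacrylamide coated with type I collagen. The labels give 24 h of culture, whereas a figure legend of the study gives a longer time. Neither the labels nor the methods name the substrate under the normal cells, so gel, coating and stiffness cannot be told apart in a comparison of a gel with normal. No genotype or drug differed between the groups. Whether replicates were independent cultures or animals is not said, so the p-values measure the spread between samples that may be technical replicates.

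Cartilage owes its tensile strength to thin heterotypic fibrils in which collagen II is the bulk component. Collagen XI lies largely inside these fibrils and limits their diameter. It is a trimer of 3 different chains, of which Col11a1 and Col11a2 encode a chain each and the remaining chain is a form of the Col2a1 product. Collagen IX belongs to the FACIT family (fibril-associated collagens with interrupted triple helices). It is assembled from the products of Col9a1, Col9a2 and Col9a3 and sits on the fibril surface, where it links fibrils to other matrix proteins. Sox9 with Sox5 and Sox6 is the known driver of these genes in chondrocytes, and their loss is a usual sign of dedifferentiation in monolayer culture.

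In the mouse genome (GRCm38.p6) the 6 genes lie on 6 chromosomes. Col2a1 spans 97975602 to 98004724 on chromosome 15, Col11a1 spans 114030479 to 114220756 on chromosome 3 and Col11a2 spans 34038919 to 34066684 on chromosome 17. Col9a1 spans 24177589 to 24252738 on chromosome 1, Col9a2 spans 121039566 to 121055325 on chromosome 4 and Col9a3 spans 180598102 to 180622192 on chromosome 2. The 250 bases before a RefSeq transcript start were searched on both strands for the SOX core ACAAT, the TATA box TATAAA, the GC box GGGCGG and the CCAAT box CCAAT, and 4 of the 6 genes had a window in the promoter table. The Col11a1 and Col11a2 windows are shown because their products join the same trimer while only Col11a1 passed a test below, and both Col9a1 windows because this gene has a pair of starts. The transcript starts of these windows lie inside the gene spans given above, so the windows hold bases of those spans. Most of the Col11a2 window, with all its motif matches, and the whole downstream Col9a1 window lie within the span. Capitals mark the motif matches, including those on the opposite strand, and no matches overlapped.
Col11a1 (chr3:114030290-114030539, plus strand): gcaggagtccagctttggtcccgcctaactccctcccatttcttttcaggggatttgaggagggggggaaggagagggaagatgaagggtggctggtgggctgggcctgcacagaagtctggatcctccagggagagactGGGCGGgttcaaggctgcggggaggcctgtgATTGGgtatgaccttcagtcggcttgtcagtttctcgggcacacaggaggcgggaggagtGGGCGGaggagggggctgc
Col11a2 (chr17:34038888-34039137, plus strand): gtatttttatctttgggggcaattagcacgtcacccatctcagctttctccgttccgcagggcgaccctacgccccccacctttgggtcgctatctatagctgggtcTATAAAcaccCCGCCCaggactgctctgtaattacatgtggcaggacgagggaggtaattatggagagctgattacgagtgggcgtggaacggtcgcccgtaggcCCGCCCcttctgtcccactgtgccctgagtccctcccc
Col9a1, upstream start (chr1:24177360-24177609, plus strand): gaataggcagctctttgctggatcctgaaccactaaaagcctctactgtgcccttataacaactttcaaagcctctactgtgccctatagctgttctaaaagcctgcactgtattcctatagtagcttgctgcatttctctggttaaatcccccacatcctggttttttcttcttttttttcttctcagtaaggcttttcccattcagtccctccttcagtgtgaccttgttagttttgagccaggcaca
Col9a1, downstream start (chr1:24194953-24195202, plus strand): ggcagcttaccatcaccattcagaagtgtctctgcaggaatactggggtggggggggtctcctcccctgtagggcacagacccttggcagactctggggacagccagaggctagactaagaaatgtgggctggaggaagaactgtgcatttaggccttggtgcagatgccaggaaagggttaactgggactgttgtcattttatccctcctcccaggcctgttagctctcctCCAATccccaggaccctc

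The Col11a1 window held 2 GC boxes and 1 CCAAT box, and the Col11a2 window held 2 GC boxes and 1 TATA box. The upstream Col9a1 window held none of the 4 motifs and the downstream one held 1 CCAAT box. The Col9a2 window, not printed, held 2 GC boxes. The SOX core ACAAT occurred in none of the 5 windows of these genes, against 27.7% of all 32851 mouse windows of this length. The GC box occurred in 32.7% of all windows, CCAAT in 33.8% and TATAAA in 12.4%. A match is a description of these letters only. The 5 windows had a GC content of 43.6% to 62.4%, with 52.4% as the median of all windows.

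Expression was read on a single-colour mouse oligonucleotide array as normalised intensity, a relative brightness without a count behind it, so the number of samples limits the precision. Within groups the log2 intensities of any pair of samples correlated at 0.98 to 0.99. The median intensity of a sample ran from 124 to 179 in normal, from 137 to 150.0 on soft and from 166 to 175 on stiff. On the log2 scale the median probe was 0.18 higher on stiff than on soft, 0.09 higher on stiff than in normal and 0.09 lower on soft than in normal, and quantile normalisation removed these shifts. Olfactory receptor probes, whose genes are not used by cartilage, gave a gauge of silent genes: 95% of the 465 tested lay below an intensity of 309. Their median was itself higher on stiff, at 27.9 to 48.5 in normal, 37.7 to 42.2 on soft and 54.6 to 57.4 on stiff. Of 9 chondrocyte markers, 4 (Acan, Sox9, Comp and Hapln1) had a mean above this gauge, whereas Matn1, Matn3, Snorc, Ucma and Cnmd lay within the range of the silent genes. Of 12 skeletal muscle markers, 11 lay above the gauge, and their summed intensity was 171400 to 206900 in normal, 170600 to 189900 on soft and 102700 to 126700 on stiff. Summed fibroblast, tendon and synovial markers, 8 of 9 above the gauge, reached 49420 to 65980 in normal, 48340 to 51390 on soft and 44930 to 48380 on stiff. Differences between groups were tested with limma over all 24942 probes with Benjamini-Hochberg adjustment and a threshold of 0.05.

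On the soft ECM the fibril's bulk chain and one chain of collagen XI fell against normal. Col2a1 and Col11a1 passed the test, both lower, so 2 of the 6 genes passed against 3.7% of all probes (0.493% higher and 3.21% lower). On the stiff ECM Col2a1, Col11a1 and Col9a1 were lower than in normal, which is 3 of 6 against 9.94% of all probes (4.8% higher and 5.14% lower). Between stiff and soft none of the 6 passed, where 1.77% of all probes did (1.35% higher and 0.417% lower). At an unadjusted p under 0.05, limma picked 3 of the 6 between the gels and the equal-variance test, run on each probe alone, also picked 3, with 21.6% and 27.5% of all probes, and none passed the latter after adjustment. Both comparisons with normal rest on the same 3 normal samples. In these bulk samples fewer cells of a type and less RNA per cell cannot be told apart.

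**Figure D1:**
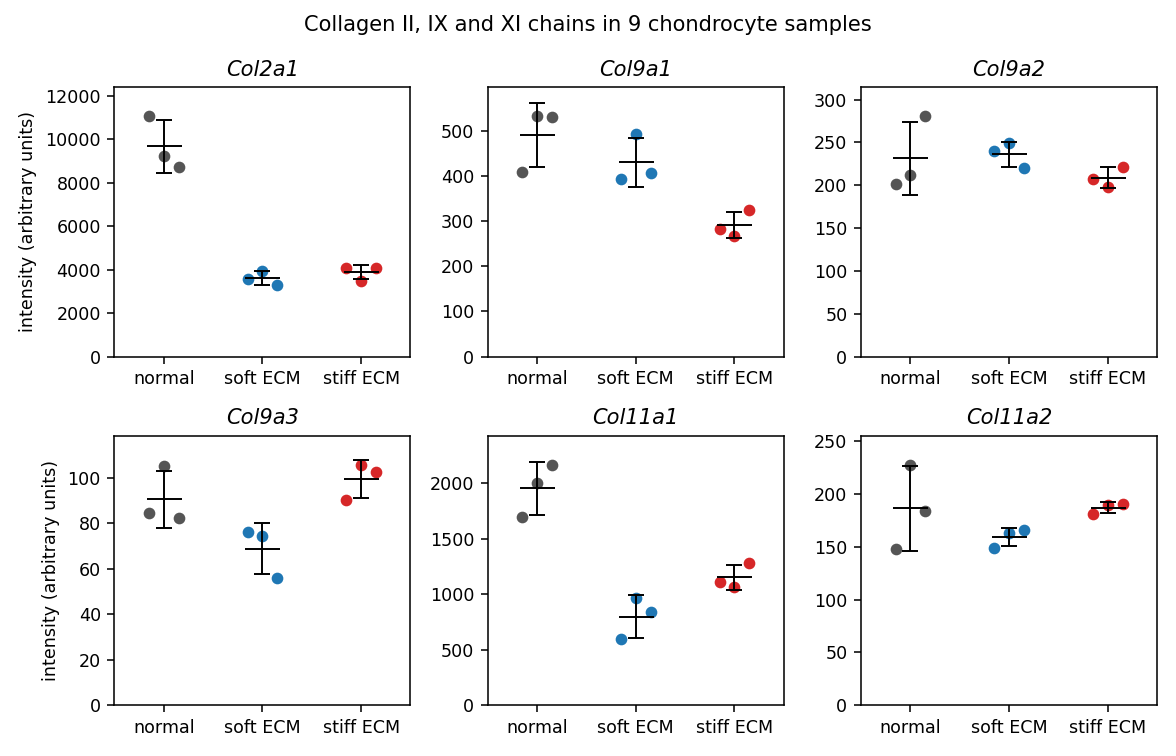
Normalised intensity (linear axis) of the 6 collagen genes in each of the 9 samples, with 1 panel per gene. Points mark samples, bars the mean of each group and whiskers the SD. The 3 normal samples of Col2a1 (8719.6 to 11070) and of Col11a1 (1695 to 2166) sit above all 6 gel samples, whereas the groups of Col9a2 overlap.

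Col2a1 encodes the chain that makes up collagen II. Its intensity was 11070, 9229.7 and 8719.6 in the 3 normal samples, 3568, 3963 and 3304 on soft and 4092, 3505 and 4069 on stiff. Every gel sample lay below every normal sample, and the gels overlapped each other. The mean was 9673 ± 1236 (SD, n = 3) in normal, 3612 ± 332 (SD, n = 3) on soft and 3889 ± 332.5 (SD, n = 3) on stiff. Relative to normal, Col2a1 was 2.67-fold lower on soft (log2 change -1.42, SE 0.12, limma adjusted p = 0.00102) and 2.48-fold lower on stiff (log2 change -1.31, SE 0.12, limma adjusted p = 0.000963). The log2 difference between stiff and soft was 0.11, with a 95% interval of -0.15 to 0.37 (limma adjusted p = 0.601), an interval that holds differences of either sign. The fall against normal passed the limma test with each sample left out in turn and was lost with the equal-variance test, which gave adjusted p-values of 0.0704 for soft and 0.0693 for stiff.

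Col11a1 and Col11a2 encode the chains specific to collagen XI, and of these only Col11a1 passed a test. Col11a1 gave 1695, 2002 and 2166 in normal, 592, 967 and 837 on soft and 1109.9, 1065 and 1282 on stiff. The 3 groups did not overlap: normal was highest, stiff intermediate and soft lowest. Means were 1954 ± 239 (SD, n = 3), 799 ± 190.1 (SD, n = 3) and 1152 ± 114 (SD, n = 3). Col11a1 was 2.48-fold lower on soft than in normal (log2 change -1.31, SE 0.17, limma adjusted p = 0.00585) and 1.69-fold lower on stiff (log2 change -0.76, SE 0.17, limma adjusted p = 0.0245). The fall on stiff was lost without normal replicate 2 (limma adjusted p = 0.0715), without stiff replicate 1 (0.0589) and without stiff replicate 2 (0.0906). The higher level on stiff than on soft did not pass the test (log2 difference 0.55, 95% interval 0.17 to 0.94, limma adjusted p = 0.115).

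Col11a2 was dim, with a mean above that of 86.7% of the olfactory receptor probes. It gave 148, 228 and 184 in normal, 149, 163 and 166 on soft and 181, 189.9 and 190.4 on stiff. The normal samples spanned both gels, and the stiff samples lay above the soft ones. Its log2 difference was -0.21 for soft against normal (limma adjusted p = 0.536), 0.03 for stiff against normal (95% interval -0.34 to 0.40, limma adjusted p = 0.927) and 0.23 for stiff against soft (limma adjusted p = 0.424). The mean log2 ratio of the Col11a1 intensity to that of Col11a2 within a sample was 3.41 ± 0.23 (SD, n = 3) in normal, 2.30 ± 0.29 (SD, n = 3) on soft and 2.62 ± 0.13 (SD, n = 3) on stiff. The lowest normal sample (3.14) lay above the highest gel sample (2.75), while the gels overlapped. As Col11a2 lies within the range of silent genes, this ratio does not show whether the chains changed unequally, and it is not the proportion of the chains.

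Of the collagen IX chains, Col9a1 was lower on stiff than in normal, and Col9a2 and Col9a3 did not pass the limma test in any comparison. Col9a1 gave 409, 532 and 529.8 in normal, 392, 493 and 406 on soft and 283, 267 and 324 on stiff. All 3 stiff samples lay below every other sample, and soft overlapped normal. Means were 490.3 ± 70.3 (SD, n = 3), 430.2 ± 54.5 (SD, n = 3) and 291 ± 29.5 (SD, n = 3). Col9a1 was 1.68-fold lower on stiff than in normal (log2 change -0.75, SE 0.15, limma adjusted p = 0.0167), a call lost without normal replicate 2 (0.0620) and without stiff replicate 2 (0.0709). The stiff mean and the stiff samples at 283 and 267 lay below the gauge of silent genes, so the size of this fold is less certain than for Col2a1 and Col11a1. The log2 difference between soft and normal was -0.19 (95% interval -0.52 to 0.15, limma adjusted p = 0.535). Against soft, stiff was lower by a log2 difference of -0.56 (95% interval -0.89 to -0.23), which missed the threshold (limma adjusted p = 0.0780). This difference passed after quantile normalisation (log2 change -0.75, limma adjusted p = 0.0232), median centring (-0.81, 0.0142) and cyclic loess (-0.71, 0.0279). Muscle markers were also lower on stiff. Between the gels 4 of 12 (Ckm, Tnni1, Tnnc2 and Mb) were lower on stiff, against 0.417% of all probes. Against normal 10 of 12 were lower on stiff, against 5.14% of all probes, and 0 passed on soft. On soft against normal 4 of the 12 had an unadjusted p under 0.05 with limma and 2 with the equal-variance test, 0 after its adjustment. Of all probes, 19.9% with limma and 15.7% with the equal-variance test had such an unadjusted p on soft against normal. Without stiff replicate 2 the muscle counts on stiff were 0 against soft and 5 against normal. Without stiff replicate 3 they were 3 and 4. After quantile normalisation, centring or loess, 8 to 11 of the 12 passed between the gels. Of 9 fibroblast, tendon and synovial markers, 1 (Prg4) was lower on stiff than on soft, and 3 passed there after each of the other normalisations. Against normal 3 were lower on stiff (Scx, Thy1 and Prg4) and 3 on soft (Scx, Tnmd and Thy1), where 5.14% and 3.21% of all probes were lower. With a sample left out, 0 to 2 passed between the gels, 2 to 4 on stiff and 0 to 3 on soft. The part of these markers and of the muscle markers in the Col9a1 result was not tested.

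Col9a2 encodes another chain of the same trimer and was measured at 201, 212 and 281 in normal, 239.5, 249 and 221 on soft and 208, 198 and 221 on stiff. The 3 groups overlapped. Its mean was 231 ± 43.0 (SD, n = 3), 236.5 ± 14.6 (SD, n = 3) and 209 ± 11.9 (SD, n = 3), and the log2 difference between stiff and soft was -0.18 (95% interval -0.51 to 0.16, limma adjusted p = 0.501). Against normal the log2 difference was 0.05 on soft (limma adjusted p = 0.906) and -0.13 on stiff (limma adjusted p = 0.584).

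Col9a3, the remaining chain gene, was the dimmest against the gauge, above 68.6% of the olfactory receptor probes. Its intensity was 84.7, 105 and 82.3 in normal, 76.2, 74.3 and 55.9 on soft and 90.1, 106 and 103 on stiff. Soft was lowest without overlap, and stiff overlapped normal. The difference between stiff and soft was 0.54 on the log2 scale (95% interval 0.13 to 0.96, limma adjusted p = 0.145). It was 0.26 after quantile normalisation, 0.30 after centring and 0.26 after loess, and it passed only with sample weights (log2 difference 0.62, limma adjusted p = 0.0108). The median of the olfactory receptor probes was higher on stiff as well (54.6 to 57.4 against 37.7 to 42.2 on soft), and its part in the Col9a3 difference was not tested. Soft against normal gave -0.40 (limma adjusted p = 0.267) and stiff against normal 0.14 (limma adjusted p = 0.649). Col9a2, Col9a3 and Col11a2 all had means below the gauge of silent genes, and no firm statement on them can be made at that brightness.

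**Figure D2:**
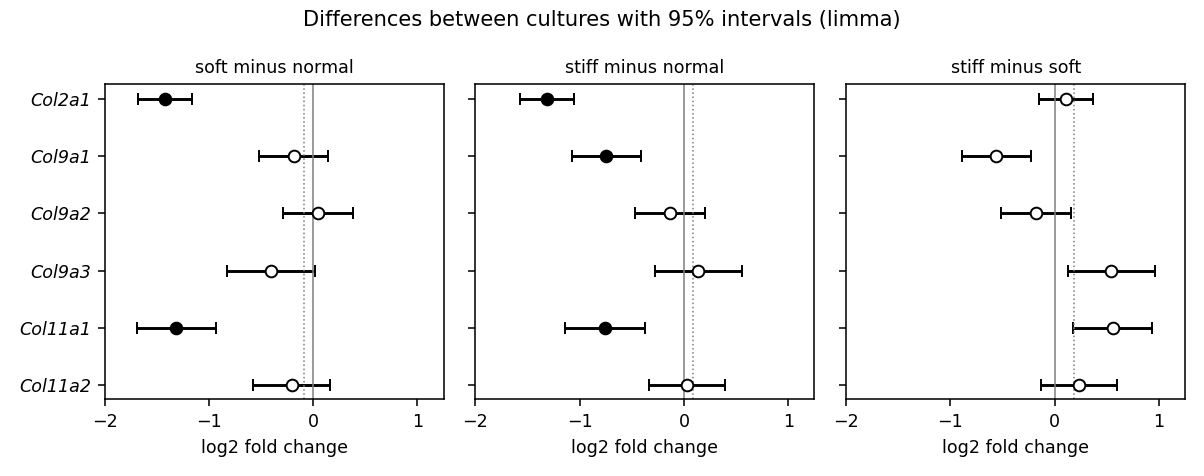
Log2 differences with 95% intervals for the 6 genes in the 3 comparisons, filled points marking a limma adjusted p below 0.05 and a dotted line marking the median of all probes. Filled points occur for Col2a1 and Col11a1 on soft against normal and for Col2a1, Col9a1 and Col11a1 on stiff against normal, with none for stiff against soft.

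Separation of the samples without overlap was frequent in this experiment. Between stiff and soft 4 of the 6 genes did not overlap, with Col9a1 lower and Col9a3, Col11a1 and Col11a2 higher on stiff, where 38.1% of all probes did not overlap (31.7% higher and 6.39% lower). Soft and normal did not overlap in 3 of 6 (Col2a1, Col9a3 and Col11a1, all lower on soft) against 23.5% of probes (5.26% higher and 18.3% lower). Stiff and normal did not overlap in 3 of 6 (Col2a1, Col9a1 and Col11a1, all lower on stiff) against 33.9% (19.3% higher and 14.6% lower). The median log2 difference of the 6 genes was 0.17 for stiff against soft, -0.44 for stiff against normal and -0.31 for soft against normal, with 0.18, 0.09 and -0.09 as the median of all probes.

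**Figure D3:**
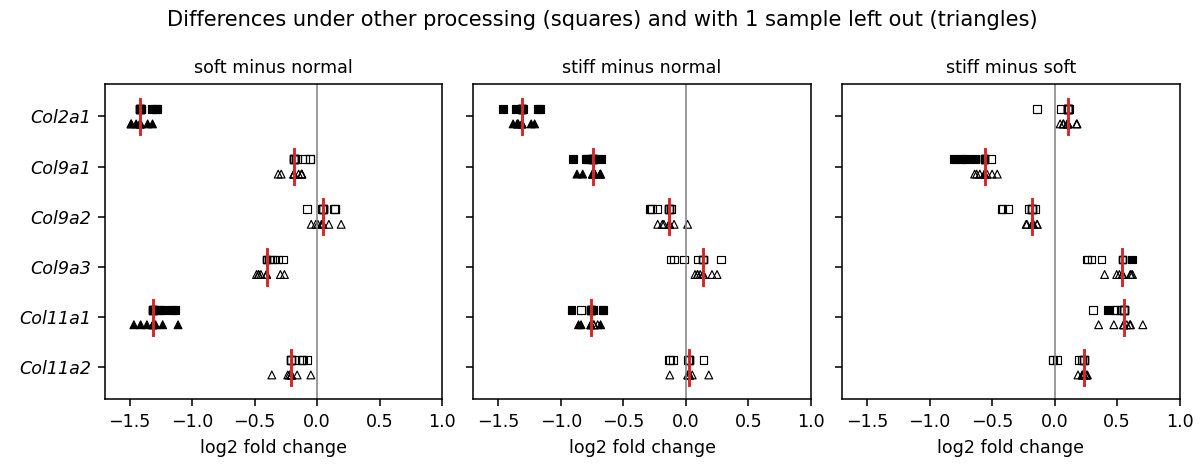
Log2 differences of the 6 genes under the other ways of processing (squares) and with each sample left out in turn (triangles), with the value reported in the text as a red line and filled marks for an adjusted p below 0.05. The Col2a1 falls of -1.42 on soft and -1.31 on stiff keep their sign under all of them. Sign changes occur for Col2a1 and Col11a2 on stiff against soft, for Col9a2, Col9a3 and Col11a2 on stiff against normal, and for Col9a2 on soft against normal.

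Ratios of intensities within a sample cancel a factor common to all probes, but not a background that differs between samples, and those to Col9a2, Col9a3 or Col11a2 are taken against probes within the range of silent genes. The log2 ratio of Col9a1 to Col9a3 was 2.27, 2.34 and 2.69 in normal, 2.36, 2.73 and 2.86 on soft and 1.65, 1.34 and 1.66 on stiff. The stiff samples lay below all others, and normal and soft overlapped. The ratio of Col9a1 to Col9a2 was 1.09 ± 0.21 (SD, n = 3) in normal, 0.86 ± 0.14 (SD, n = 3) on soft and 0.48 ± 0.06 (SD, n = 3) on stiff, again with the stiff samples lowest. Against normal, Col9a1 to Col2a1 ran the other way, with -4.31 ± 0.39 (SD, n = 3) in normal, -3.07 ± 0.10 (SD, n = 3) on soft and -3.74 ± 0.11 (SD, n = 3) on stiff: both gels were above normal and soft was highest. Between the gels stiff was again the lower. Col11a1 to Col2a1 was -2.31 ± 0.36 (SD, n = 3), -2.20 ± 0.34 (SD, n = 3) and -1.76 ± 0.11 (SD, n = 3). The normal and soft ranges overlapped here and the stiff samples were the highest. These ratios are given as a description without a test.

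**Figure D4:**
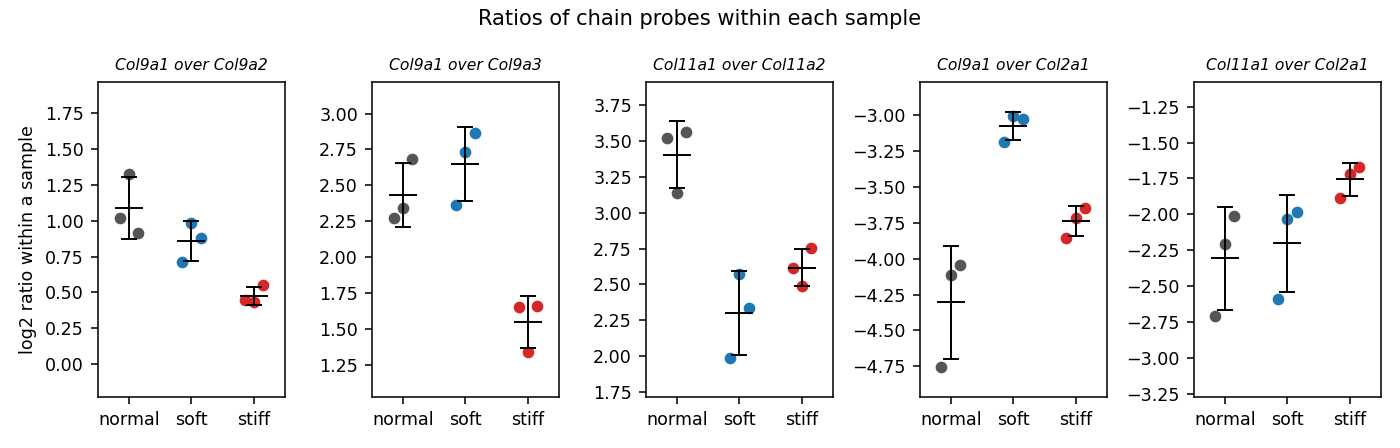
Log2 ratios of the intensities of chain pairs in each of the 9 samples, with points for samples and bars for group means. Col9a1 over Col9a3 is lowest in the 3 stiff samples (1.34 to 1.66), and Col11a1 over Col11a2 is highest in the 3 normal samples (3.14 to 3.56).

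Of 17 matrix partners of the fibril tested, Fmod was lower on soft, and Fmod and Prg4 were lower on stiff than in normal. At an unadjusted p under 0.05 limma picked 5 on soft and 6 on stiff, against 19.9% and 30% of all probes. After the other normalisations 1 passed on soft and 3 to 5 on stiff. Fmod (fibromodulin, a small proteoglycan that binds collagen fibrils) had means of 3680 in normal, 1921 on soft and 1927 on stiff, a log2 change of -0.94 on soft (limma adjusted p = 0.00309) and -0.93 on stiff (limma adjusted p = 0.00174). Prg4 (lubricin, made by superficial chondrocytes and synovial cells) was the only partner lower on stiff than on soft, 1986 against 3974 (log2 change -1.01, limma adjusted p = 0.0171). That call was lost without soft replicate 2 (0.0552), soft replicate 3 (0.0735) or stiff replicate 2 (0.101). Acan, the core protein of aggrecan, had means of 1108, 529.9 and 655 and did not pass (limma adjusted p = 0.105 on soft and 0.144 on stiff). The median log2 difference of the 17 partners was -0.27 on soft and -0.22 on stiff, against -0.09 and 0.09 for all probes.

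Among 9 chondrogenic regulators, the count passing with limma was 0 in each comparison. At an unadjusted p under 0.05 limma picked 2 between the gels, 3 on stiff and 3 on soft. The equal-variance test picked 3, 0 and 2, with 0 after adjustment. Of all probes limma picked 21.6%, 30% and 19.9% in the same order, and the equal-variance test 27.5%, 20.2% and 15.7%. Sox9, the transcription factor that drives Col2a1, had means of 724.4 in normal, 660.9 on soft and 656.3 on stiff, with limma adjusted p-values of 0.644 for soft and 0.510 for stiff against normal and 0.967 between the gels. Its partner Sox5 had means of 722.4, 748.7 and 695.4, and Sox6 of 104.8, 80.7 and 83.9, the last within the range of silent genes. The smallest p between the gels belonged to Trps1 (log2 difference 0.887, limma adjusted p = 0.134), Nkx3-2 (0.596, 0.151) and Arid5b (0.253, 0.285), all higher on stiff. After quantile normalisation, centring or loess, 3 to 4 of the 9 passed on stiff against normal and 0 on soft.

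Several enzymes that hydroxylate and fold collagen chains fell on both gels. Of 18 tested, 6 were lower on soft (P4ha1, P4ha2, P4ha3, Plod3, P3h3 and Serpinh1), against 3.21% of all probes. On stiff 5 were lower (P4ha1, P4ha2, P4ha3, P4hb and P3h3), against 5.14% of all probes, and none was higher on either gel. Between the gels 0 passed with limma (2 at an unadjusted p under 0.05 with limma, 3 with the equal-variance test, of which 1 passed after adjustment). The unadjusted shares of all probes were 21.6% and 27.5%. P4ha3, a catalytic subunit of prolyl 4-hydroxylase, had means of 2787, 1589 and 1529 (log2 change -0.81, limma adjusted p = 0.00485 on soft, and -0.86, 0.00237 on stiff). P4ha1, another such subunit, fell by 0.56 on soft (limma adjusted p = 0.0108) and by 0.57 on stiff (0.00618) on the log2 scale. By contrast, Serpinh1 lost its call on soft without any 1 of the 9 samples (adjusted p of 0.0548 to 0.145) and after each of the other normalisations. P3h3 kept its call with 3 of the 9 samples left out in turn on soft and with 1 on stiff. P4hb lost its stiff call without any 1 normal or stiff replicate, or without soft replicate 2 (0.0541 to 0.129). P4ha2 lost its soft call without normal replicate 2 or 3 or any 1 soft replicate (0.0579 to 0.0966). Its stiff call was lost without stiff replicate 2 (0.1) or 3 (0.0993). Plod3 lost its soft call without normal replicate 2 or 3 or soft replicate 2 or 3 (0.0611 to 0.097). P4ha1 and P4ha3 passed with each sample left out in turn. The count on soft was 2 without normal replicate 2, normal replicate 3 or soft replicate 3, and 3 without soft replicate 1 or 2. On stiff it was 2 without stiff replicate 2 or 3, and 3 without normal replicate 1 or 2. The other normalisations gave 2 to 4 on soft and 3 to 10 on stiff. The list's median log2 difference was -0.28 on soft and -0.30 on stiff.

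Of 12 genes for procollagen processing and crosslinking, 3 were lower on soft (Bmp1, Lox and Loxl2) and 1 on stiff (Bmp1), against 3.21% and 5.14% of all probes. After the other normalisations 1 to 3 of the 12 passed on soft, 3 on stiff and 0 to 1 between the gels. Between the gels limma picked 4 of them at an unadjusted p under 0.05, against 21.6% of all probes. Lox, the oxidase that starts collagen crosslinks, had means of 48380 in normal, 31910 on soft and 43060 on stiff (soft against normal -0.60, limma adjusted p = 0.0119). Between the gels its log2 difference was 0.44 (limma adjusted p = 0.0514). Loxl2 was lower on soft by a log2 change of -0.68 (limma adjusted p = 0.0180), lost without normal replicate 2 (0.0527), soft replicate 1 (0.0552) or soft replicate 3 (0.0711). Bmp1, the procollagen C-proteinase, had means of 1096, 648 and 677. Its stiff call was lost without stiff replicate 2 (0.0726) or stiff replicate 3 (0.0632), and its soft call without normal replicate 2 (0.0599), soft replicate 1 (0.0671) or soft replicate 2 (0.0635).

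Several other collagens also fell against normal. Of 8 other fibrillar collagens, 4 were lower on stiff (Col1a2, Col3a1, Col5a1 and Col5a3), against 5.14% of all probes. On soft 3 were lower (Col1a2, Col3a1 and Col5a1), against 3.21% of all probes. The median log2 difference of the 8 was -0.64 on stiff and -0.56 on soft. On soft 0 passed without normal replicate 2 and 1 without normal replicate 3, soft replicate 1 or soft replicate 3, and on stiff 2 passed without normal replicate 2 or stiff replicate 2. The other normalisations gave 1 to 2 on soft and 5 to 6 on stiff. None passed between the gels, with 0 at an unadjusted p under 0.05 by limma and 0 by the equal-variance test. Col1a2, a chain of collagen I, had means of 27030, 17580 and 16840 (stiff against normal -0.68, limma adjusted p = 0.00593, and soft against normal -0.62, 0.0131). The soft call of Col1a2 was lost without normal replicate 2 (0.0505) or soft replicate 3 (0.0536). Col1a1, the other chain gene of collagen I, had means of 210.4, 148.6 and 221.4, within the range of silent genes, and did not pass. Of the 8 genes, 5 had a mean above the gauge of silent genes. Col5a1, a collagen V chain that can stand in for collagen XI chains in mixed trimers, had means of 11210, 6709 and 6955 (soft -0.74, limma adjusted p = 0.0235, and stiff -0.71, 0.0182). Its soft call was lost without normal replicate 2 (0.0890), normal replicate 3 (0.0611), soft replicate 1 (0.0688) or soft replicate 3 (0.0876), and its stiff call without normal replicate 2 (0.0588). Col3a1, the chain of collagen III, lost its soft call without normal replicate 2 (0.105), normal replicate 3 (0.0785), soft replicate 1 (0.0969), soft replicate 2 (0.0622) or soft replicate 3 (0.0691), and its stiff call without normal replicate 2 (0.0553), stiff replicate 2 (0.0731) or stiff replicate 3 (0.0503). Col5a3 lost its stiff call without stiff replicate 2 (0.0533).

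Of 6 other FACIT collagens, the relatives of collagen IX, Col12a1, Col16a1 and Col19a1 were lower on both gels. For these and the receptors below, the share of all probes lower was 3.21% on soft and 5.14% on stiff. Col12a1 had means of 39400, 23030 and 25930 (log2 change -0.78 on soft, limma adjusted p = 0.00573, and -0.61 on stiff, 0.00811), and both calls held with each sample left out in turn. On stiff, Col16a1 lost its call without 7 of the 9 samples (limma adjusted p up to 0.146, without stiff replicate 2) and Col19a1 without normal replicate 2 (0.0691), stiff replicate 2 (0.0602) or stiff replicate 3 (0.0905), and on soft Col19a1 lost it without normal replicate 2 (0.0533). Of 9 collagen receptors, Itga11, the integrin subunit that binds fibrillar collagens, was lower on stiff (means 12800 in normal, 6928 on soft and 5992 on stiff, log2 change -1.11, limma adjusted p = 0.00725). Its lower level on soft (log2 change -0.90, limma adjusted p = 0.0229) was lost without 5 of the 9 samples: normal replicate 1 (0.0589), normal replicate 2 (0.0539), normal replicate 3 (0.0591), soft replicate 1 (0.0617) and soft replicate 3 (0.0657). Ddr2, a receptor kinase for fibrillar collagen, was the other receptor lower on stiff, and this call was lost without 8 of the 9 samples, up to an adjusted p of 0.159 without stiff replicate 2.

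The patterns of the 6 genes over the 9 samples differed from each other. On median-centred log2 intensity, Col2a1 and Col11a1 had a Pearson r of 0.88 and Col9a1 and Col9a2 of 0.84, while Col9a3 had -0.03 with Col9a1 and -0.21 with Col9a2. These values describe 9 samples that share 3 groups and array scaling. Among about 9171 genes above the gauge, Fstl3 (an activin-binding protein, r = 0.995), Myl9 (a myosin regulatory light chain, r = 0.991) and Cnn2 (a calponin, r = 0.987) were most like Col2a1. Myl9 had means of 9324 in normal, 3859 on soft and 4389 on stiff. Lrrc17, Spon2 and Adcy2 were most like Col9a1 (r = 0.987, 0.986 and 0.979), with Spon2, a secreted matrix protein, at means of 2932, 2693 and 1562. Npr3 (the natriuretic peptide clearance receptor), Vmn1r51 and Bsn were most like Col11a1 (r = 0.972, 0.968 and 0.965). For the dimmer genes the likeness was closest to Hlx, Mrpl14 and Gmds for Col9a2 (r = 0.948, 0.946 and 0.942) and to Ap2a1, Spidr and Golph3 for Col9a3 (r = 0.961, 0.952 and 0.949). Col11a2 had no close match, with Hpd at r = 0.819, Gnpda2 at 0.757 and Kif1c at 0.753.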

How the data were processed

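RNA from 9 samples was hybridised to the Phalanx Mouse OneArray, a single-colour array read in Cy5. Per the study's methods, the authors removed control probes and flagged spots, averaged the arrays of a sample and scaled each to the median in Rosetta Resolver, of unstated version, although the sample medians of the deposited values differ. The deposited table holds the resulting normalised intensity of 26423 probes on a linear scale, from -8.27 to 70058. Here 1481 probes (5.60%) at or below 0 in any sample were left out, and log2 intensities of 24942 probes were fitted with limma 3.58.1 in R 4.3.3 (lmFit with 3 group means over all 9 samples, eBayes with an intensity trend) without further normalisation, and adjusted by Benjamini-Hochberg. The script was tested on simulated data. Gene symbols came from the platform annotation (21876 probes with 1 symbol, 4547 with none), and 21825 probes matched a gene of RefSeq GRCm38.p6, the source of coordinates and promoters. Genes of the 15 gene lists were named for a call, for the loss of a call, for a small p or for their known role. Not every listed gene with a small p or a call is named. For each collagen gene the 3 of most similar pattern are named. The members and lists were chosen with earlier results of these data known. The authors compared the arrays with Rosetta's error-weighted model, which was not used here; an equal-variance Student test on the same log2 values of each probe alone, Benjamini-Hochberg adjusted, follows their general statistics section. Alternatives covered normalisation, filters, an offset, sample weights, the replicate block, the equal-variance test and leaving out samples.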

Additional observations from a re-analysis of the deposited data

How the results depend on the processing

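Of 363 log2 differences of the 6 genes under the alternatives, 327 kept their direction and side of the threshold, 14 lost and 8 gained significance, and 14 changed sign. The count of genes passing between stiff and soft, 0 as reported, was 1 after quantile normalisation, median centring, cyclic loess or fitting only the groups compared, and 3 with sample weights (Col9a1, Col9a3 and Col11a1; the weight estimation stopped before converging), and it ran from 0 to 1 with a sample left out (1 without normal replicate 1). Stiff against normal, 3 as reported, gave 1 with sample weights and 1 to 3 with a sample left out. The equal-variance test gave 0 (3 at an unadjusted p under 0.05, against 20.2% of all probes). Soft against normal, 2 as reported, gave 1 with sample weights and 2 with any sample left out. There the equal-variance test gave 0 (2 at an unadjusted p under 0.05, against 15.7% of all probes). Col11a1 on stiff against normal was also lost without the intensity trend (limma adjusted p = 0.0602).

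Signs changed only where no test had passed. For stiff against soft, Col2a1 became -0.14 after centring, and Col11a2 -0.0166 after quantile normalisation and -0.0134 after centring. For stiff against normal, Col9a3 became -0.0929 after quantile normalisation, -0.0155 after centring and -0.12 after loess, and Col11a2 became -0.13 after quantile normalisation, -0.13 after centring and -0.11 after loess. With a sample left out, Col11a2 on stiff against normal ran from -0.13 (without normal replicate 1) to 0.184 and Col9a2 from -0.22 to 0.0144 (without normal replicate 3). For soft against normal, Col9a2 became -0.0777 with sample weights and ran from -0.0468 (without normal replicate 1) to 0.1926 (without normal replicate 3), with -0.01 without normal replicate 2. The cause was not tested. Each gene has 1 probe, so the alternative of using its other probes could not be run.

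Over all probes, 441 passed between stiff and soft, 2478 between stiff and normal and 924 between soft and normal. These counts became 1169, 4074 and 1080 after quantile normalisation, 1480, 5561 and 664 after centring, 986, 3937 and 1223 after loess, 732, 2047 and 1058 in the brighter 50% of probes, 668, 2976 and 993 with an offset, 189, 1226 and 274 without the trend, 2373, 1112 and 540 with only the groups compared, 6622, 202 and 19 with sample weights and 223, 20 and 6 with the equal-variance test. Leaving out a sample gave 0 to 2377, 541 to 4092 and 138 to 1128, with 0 between stiff and soft without stiff replicate 2. Of calls between stiff and soft 337 were higher and 104 lower as reported, against 469 and 700 after quantile normalisation, 206 and 1274 after centring and 421 and 565 after loess. For soft against normal 123 were higher and 801 lower, against 542 and 538, 333 and 331, and 606 and 617. For stiff against normal 1197 were higher and 1281 lower, against 1725 and 3836 after centring.

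The replicate numbers did not pair the samples: deviations from group means correlated at -0.22 to 0.13 over 9 same-numbered pairs, with 2 above 0.1. With the replicate number as a block, 0, 3 and 2 of the 6 genes passed in the same order, and 132, 1558 and 308 of all probes. Over 945 list counts, 684 stayed within 1.5 times the reported count. Arrays carry no count of molecules, and 3 of the 6 genes (Col9a2, Col9a3 and Col11a2) lie within the intensity range of silent genes, which limits what could be detected.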

Other observations

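Of 14 genes tested that degrade collagen or restrain its breakdown, Mmp3 (stromelysin 1, a matrix metalloproteinase) was lower on both gels, with means of 34660 in normal, 26450 on soft and 26210 on stiff (limma adjusted p = 0.0275 and 0.0161). The soft call was lost without normal replicate 2 (0.0893), normal replicate 3 (0.0619), soft replicate 1 (0.0594), soft replicate 2 (0.0755), soft replicate 3 (0.0953) or stiff replicate 2 (0.0533), and the stiff call without stiff replicate 2 (0.0606). At an unadjusted p under 0.05 limma picked 5 of the 14 in each comparison. Of all probes it picked 21.6% between the gels, 30% on stiff and 19.9% on soft. Between the gels 0 passed with limma as reported and with the equal-variance test (4 unadjusted, against 27.5% of all probes). There 2 to 4 passed after the other normalisations, and 3 passed without normal replicate 1. Of 8 hypertrophic and bone markers tested, Pth1r, the receptor for parathyroid hormone and its related peptide, was lower on stiff than in normal, with means of 558 and 830.0 (limma adjusted p = 0.0215). This call was lost without normal replicate 2 (0.0655), stiff replicate 2 (0.0794) or stiff replicate 3 (0.0514).

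Adipoq (adiponectin, a hormone of fat cells) was the 1 adipocyte marker of 5 that passed, and it rose on both gels. Its mean was 142 ± 31.4 (SD, n = 3) in normal, 454.8 ± 113 (SD, n = 3) on soft and 366.7 ± 39.4 (SD, n = 3) on stiff, a log2 change of 1.68 on soft (limma adjusted p = 0.00498) and 1.39 on stiff (limma adjusted p = 0.00593). The normal mean lay below the gauge of silent genes, so the size of these changes is uncertain. At an unadjusted p under 0.05 limma picked 3 of the 5 adipocyte markers on soft and 2 on stiff, against 19.9% and 30% of all probes. After the other normalisations 2 to 3 passed on soft and 1 to 2 on stiff. With a sample left out, 1 to 2 passed on soft and 1 to 3 on stiff. Of 7 macrophage and 6 endothelial markers, 0 passed with limma in any comparison. At an unadjusted p under 0.05 limma picked 0 macrophage markers between the gels, 2 on stiff and 3 on soft, and 1, 0 and 0 endothelial markers. The equal-variance test picked 0, 1 and 3 macrophage and 2, 0 and 0 endothelial markers. Of all probes limma picked 21.6%, 30% and 19.9% in that order, and the equal-variance test 27.5%, 20.2% and 15.7%. After adjustment that test kept 1 endothelial marker between the gels and 0 of the others. None of the 6 endothelial markers had a mean above the gauge of silent genes.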
